A study of Mus musculus with 6 samples.

Results

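The genes described are those that write, copy and remove DNA methylation in mouse pluripotent stem cells. They are Dnmt1 and Uhrf1, which copy methylation to new DNA strands, Dnmt3a, Dnmt3b and Dnmt3l, which place it on unmethylated DNA, and Tet1, Tet2, Tet3 and Tdg, which remove it. They were chosen by name, with earlier results of these data known. Of the 9 genes, 8 had a probe set on the array that carried their symbol alone, out of 19938 genes measured this way. The 4 probe sets that list Tdg also list its pseudogene Tdg-ps2, so no value is given for Tdg. Where a gene had several, its brightest probe set was used.

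Total RNA of mouse induced pluripotent stem cells (iPSCs, fibroblasts reprogrammed to pluripotency) was hybridised to 6 Affymetrix gene arrays. The 3 primed cultures were grown in medium conditioned by embryonic fibroblasts with basic FGF at 8 ng/ml, on feeders or matrigel. The 3 naive cultures were grown in medium with 15% fetal bovine serum that also held LIF, the leukaemia inhibitory factor, at 1000 U/ml. By the sample titles the primed cells came from adult dermal fibroblasts and the naive cells from embryonic fibroblasts, whereas the source label gives embryonic fibroblasts for all 6, so culture state and origin of the line may have changed together and cannot then be told apart. The labels give no strain, sex, passage or line, and do not say which step was repeated to make the biological replicates. The p-values therefore measure the spread between these cultures, which may be technical.

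DNA methylation of mammals sits mostly on the cytosine of CpG dinucleotides. Dnmt3a and Dnmt3b are the de novo methyltransferases, and Dnmt3l is a relative without catalytic activity that binds and stimulates both. Uhrf1 recognises half-methylated CpGs behind the replication fork and recruits Dnmt1, which restores the second strand. TET enzymes oxidise methylcytosine, and the glycosylase encoded by Tdg cuts out the later oxidation products. In mouse, naive cells kept in serum and LIF are known for abundant Dnmt3l, and primed cells and the post-implantation epiblast for abundant Dnmt3a and Dnmt3b.

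The windows upstream of the members' transcription starts are shown because these genes are both makers and possible targets of CpG methylation, and because Dnmt3l and Tet2, the members with the largest fall and rise, differed widely in CpG content. Each line gives the 250 bases before a start in the RefSeq promoter table of mouse build GRCm38.p6, written 5′ to 3′ on the strand of the gene, with every CpG in capitals. Starts are numbered along the gene among the 15 held for the members in that table, which lacks further upstream starts of some genes. The RefSeq spans of Dnmt3a, Tet2 and Tet3 begin upstream of their first start there, so their windows lie inside the annotated gene. Those of Dnmt3b and Tet1 lie partly inside it. The array does not tell which start was used.

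Dnmt3l start 1, chr10:78042037-78042286, plus strand: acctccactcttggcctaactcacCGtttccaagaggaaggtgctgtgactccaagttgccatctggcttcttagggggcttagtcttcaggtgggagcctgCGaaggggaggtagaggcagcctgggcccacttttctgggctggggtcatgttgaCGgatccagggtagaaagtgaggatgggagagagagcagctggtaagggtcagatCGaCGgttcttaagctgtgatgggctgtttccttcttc
Dnmt3l start 2, chr10:78049592-78049841, plus strand: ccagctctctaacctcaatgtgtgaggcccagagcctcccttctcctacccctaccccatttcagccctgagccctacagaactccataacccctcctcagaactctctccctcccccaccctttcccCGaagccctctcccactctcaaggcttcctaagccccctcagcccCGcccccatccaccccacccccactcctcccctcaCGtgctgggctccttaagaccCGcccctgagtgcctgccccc
Dnmt3l start 3, chr10:78055085-78055334, plus strand: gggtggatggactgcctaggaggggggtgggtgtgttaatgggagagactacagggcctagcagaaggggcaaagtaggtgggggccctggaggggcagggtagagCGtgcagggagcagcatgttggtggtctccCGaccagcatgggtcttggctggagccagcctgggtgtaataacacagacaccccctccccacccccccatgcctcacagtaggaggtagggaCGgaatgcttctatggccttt
Dnmt3a start 1, chr12:3806730-3806979, plus strand: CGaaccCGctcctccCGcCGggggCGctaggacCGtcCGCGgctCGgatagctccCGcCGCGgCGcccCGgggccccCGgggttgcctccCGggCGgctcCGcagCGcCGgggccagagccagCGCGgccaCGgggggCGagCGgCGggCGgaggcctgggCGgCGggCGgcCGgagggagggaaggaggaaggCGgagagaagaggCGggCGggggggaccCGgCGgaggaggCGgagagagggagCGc
Dnmt3a start 3, chr12:3891494-3891743, plus strand: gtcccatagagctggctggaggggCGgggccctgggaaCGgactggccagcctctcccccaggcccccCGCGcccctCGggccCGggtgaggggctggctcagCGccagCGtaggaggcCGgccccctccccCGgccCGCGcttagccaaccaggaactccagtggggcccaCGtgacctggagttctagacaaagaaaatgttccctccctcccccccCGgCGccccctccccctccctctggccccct
Dnmt3b, chr2:153649199-153649448, plus strand: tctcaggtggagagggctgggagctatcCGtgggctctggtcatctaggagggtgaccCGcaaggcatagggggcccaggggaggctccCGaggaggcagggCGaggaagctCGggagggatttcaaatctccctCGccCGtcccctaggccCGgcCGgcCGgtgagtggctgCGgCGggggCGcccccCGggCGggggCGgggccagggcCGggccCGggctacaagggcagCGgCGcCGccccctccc
Tet2, chr3:133544391-133544640, minus strand: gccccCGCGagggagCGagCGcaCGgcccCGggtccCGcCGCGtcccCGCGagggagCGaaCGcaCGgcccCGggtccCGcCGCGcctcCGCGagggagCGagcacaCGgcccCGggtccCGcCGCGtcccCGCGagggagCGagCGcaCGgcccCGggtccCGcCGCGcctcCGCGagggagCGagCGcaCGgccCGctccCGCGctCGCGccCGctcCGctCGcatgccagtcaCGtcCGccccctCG

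Dnmt3l, whose level fell to background in primed cells, had few CpGs before any of these 3 starts, namely 5, 4 and 3. Over 32851 such windows of the mouse annotation the median was 6, with quartiles at 2 and 16. Tet2, whose level rose most among the members, had 51 CpGs in its window, more than 99.9% of windows. Dnmt3a had 38 before start 1, 40 before start 2, whose window overlaps that of start 1, and 15 before start 3, which lies 84764 bases downstream of start 1. Dnmt3b had 21. A ratio of observed to expected CpGs of at least 0.6 was reached in 7 of the 15 windows of the members, against 34% of all windows, and in none of those of Dnmt3l and Tet3. This is a description of sequence, and methylation itself was not measured.

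**Figure D1:**
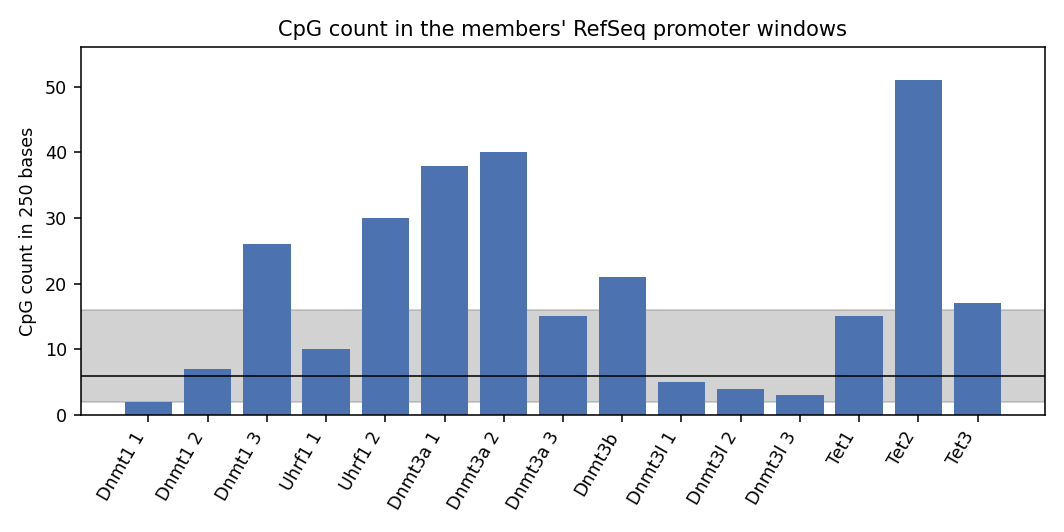
CpG count (vertical axis, number in 250 bases) in the 15 RefSeq windows analysed for the 8 measured members, with the number of the start after the symbol where a gene has several. Bars show counts, the grey band spans the quartiles 2 and 16 of all 32851 windows and the line is their median of 6. The 3 bars of Dnmt3l and that of Dnmt1 start 1, the shortest at 2, lie under the line. The bar of Tet2, at 51, is the tallest.

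Short motifs were searched on both strands of these windows. The GC box GGGCGG was present in 11 of the 15 windows of the members and in 32.7% of all windows. The TATA motif TATAAA was present in 0 of the 15 and in 12.4% of all windows. The CCAAT box, CCAAT, was present in 5 of the 15 and in 33.8% of all windows. The E-box CACGTG, which itself holds a CpG, was found before Dnmt3l start 2 and Dnmt3a start 3, against 6.02% of all windows. TTCNNNGAA, the spacing read by STAT factors, was found before Dnmt3l start 2, against 7.02% of all windows. A match describes the letters and is not evidence of binding.

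Before the members, the cultures were checked against markers. In the comparison described below, 21.8% of all genes were called higher and 22.7% lower in primed cells, and each count here is read against those shares. Of 10 pluripotency markers 7 were lower in primed cells and 0 higher. Pou5f1, the Oct4 gene, had means of 11.53 in primed and 12.59 in naive cells, while Zfp42, the Rex1 gene, lay in background in both groups. Markers of the 2 states did not follow the labels throughout. Of 10 markers of the naive state 2 were higher in primed cells and 5 lower, and of 10 markers of the primed state 5 were higher there and 3 lower. The 6 naive markers that differed most, on the log2 scale as primed minus naive, were Esrrb (2.98), Dppa3 (-2.81), Nr0b1 (2.29), Tfcp2l1 (-0.60), Klf2 (-0.59) and Klf5 (-0.58). All primed values of Dppa3 lay in background. The 6 primed markers that differed most were Car14 (2.11), Fgf5 (-1.71), Lef1 (-1.38), Otx2 (0.92), Zic5 (0.76) and Zic2 (0.64). Of 11 fibroblast markers 2 rose and 5 fell in primed cells relative to naive cells. Dcn, the decorin gene, averaged 10.15 in primed and 7.25 in naive cells (difference 2.89), and Acta2, for smooth muscle actin, 10.59 in primed and 11.82 in naive cells (-1.23). The mean level of the 11 per array was 7.92 to 7.96 in primed and 7.94 to 7.98 in naive cells, and Lum, Postn and Prrx1 were in background in both. Of 6 neural markers 5 rose in primed cells (mean level 9.51 to 9.66 in primed, 8.78 to 8.86 in naive cells), and of 6 trophoblast markers 6 fell (7.65 to 7.69 in primed, 8.82 to 8.88 in naive cells). Of 6 endoderm markers 1 fell (7.59 to 7.64 in primed, 7.66 to 7.75 in naive cells). The part of other cells in the differences below was not tested.

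All levels are log2 values from robust multi-array averaging (RMA) as deposited, and all differences are primed minus naive, so that a negative one is a lower level in primed cells. Groups were compared with limma over all 19938 genes, two-sided, with Benjamini-Hochberg adjustment and a threshold of 0.05. Of the 8 measured members 3 were higher in primed cells, 3 were lower and 2 did not pass. The transcriptomes differed widely, and 44.5% of all genes passed (21.8% with the higher level in primed cells, 22.7% with the higher level in naive cells), so the number of members called is read against that share. For 6 of 8 members no primed value lay within the naive range, 3 of them above it and 3 below, against 52.9% of all genes (25.9% above and 27.0% below). The median size of the difference was 0.55 over the members and 0.135 over all genes. No member lay in background in both groups, against 26.9% of all genes. The shares and the median over all genes are therefore not matched to the members in level. As the RNA is from whole cultures, fewer cells with a transcript and less of it per cell cannot be told apart.

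**Figure D2:**
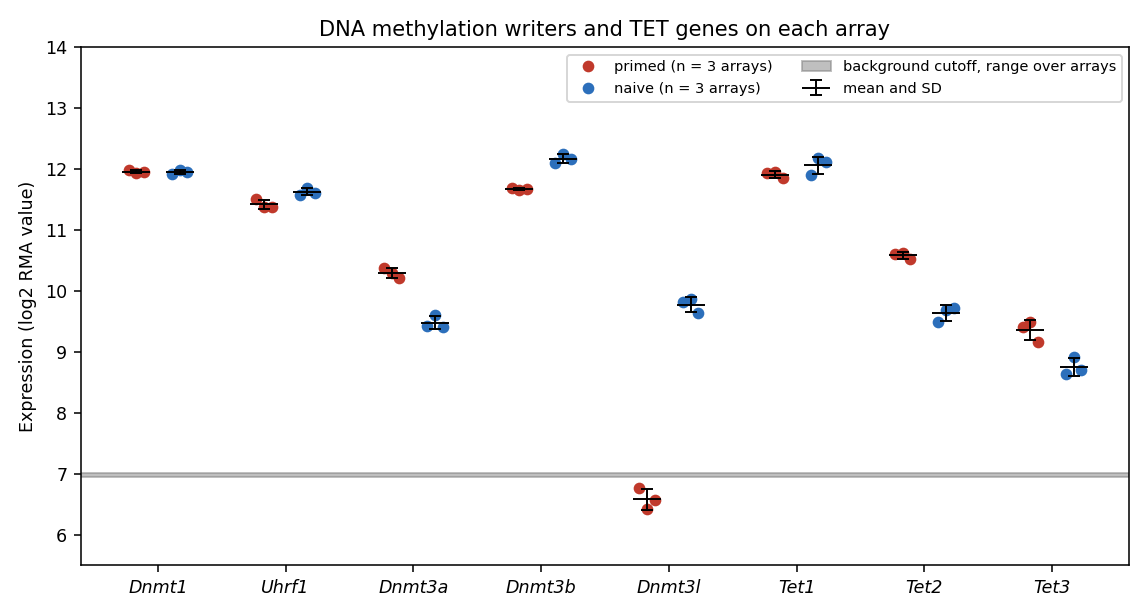
Expression of the 8 measured members on each array (vertical axis, log2 RMA value), with primed arrays in red and naive arrays in blue, 3 each; black marks are mean and SD. The grey band is the range of background cutoffs over the arrays, 6.96 to 7.02, and the primed values of Dnmt3l are the ones under it.

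Dnmt3l showed the greatest difference of the de novo group. Its level was 6.77, 6.42 and 6.56 on the primed arrays, against 9.82, 9.87 and 9.64 on the naive arrays. All 3 primed values lay under the background cutoff of their array, set at the 95th percentile of the 1194 receptor genes of smell and pheromone sensing, most of them silent outside those organs, and all naive values lay well above it. The fitted difference was -3.19 (SE 0.09, 95% confidence interval -3.39 to -3.00, limma adjusted p = 3.43e-10). Because the primed level is a background level, the change is given as a bound: Dnmt3l was at least 6.90-fold lower in primed cells, measured against the mean cutoff. It was the one member past 2-fold, against 3.55% of all genes past 2-fold and the threshold (1.84% with the higher level in naive cells).

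Dnmt3a went the other way. It measured 10.38, 10.30 and 10.21 on the primed arrays, against 9.42, 9.60 and 9.41 on the naive arrays. Each primed value was above each naive value. The difference was 0.82 (SE 0.07, 95% confidence interval 0.67 to 0.97, limma adjusted p = 1.82e-06), or 1.76-fold, larger in size than that of 94.4% of genes.

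Dnmt3b, the other active de novo enzyme, measured 11.70, 11.66 and 11.68 on the primed arrays, against 12.11, 12.24 and 12.18 on the naive arrays. The primed values were close together and all lower than the naive ones. The difference was -0.50 (SE 0.05, 95% confidence interval -0.62 to -0.38, limma adjusted p = 1.53e-05). Dnmt3b had thus 70.8% of its naive level in primed cells. Values of different genes are set against each other below only for their shift between the groups, not as amounts.

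Changes of the 3 de novo genes were unequal within arrays. The value of Dnmt3a minus that of Dnmt3b was -1.38 ± 0.08 in primed and -2.69 ± 0.06 in naive cells (SD, n = 3), a shift of 1.31 (exact permutation test, two-sided, p = 0.1). Against Dnmt3l, whose primed values are background, the shift of Dnmt3a was 4.01 (exact permutation test, p = 0.1). With 3 arrays against 3 a p of 0.1 is the smallest that this test can give. In all 5 pairs of members compared the groups did not overlap and p was 0.1, also after adjustment over the pairs.

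**Figure D3:**
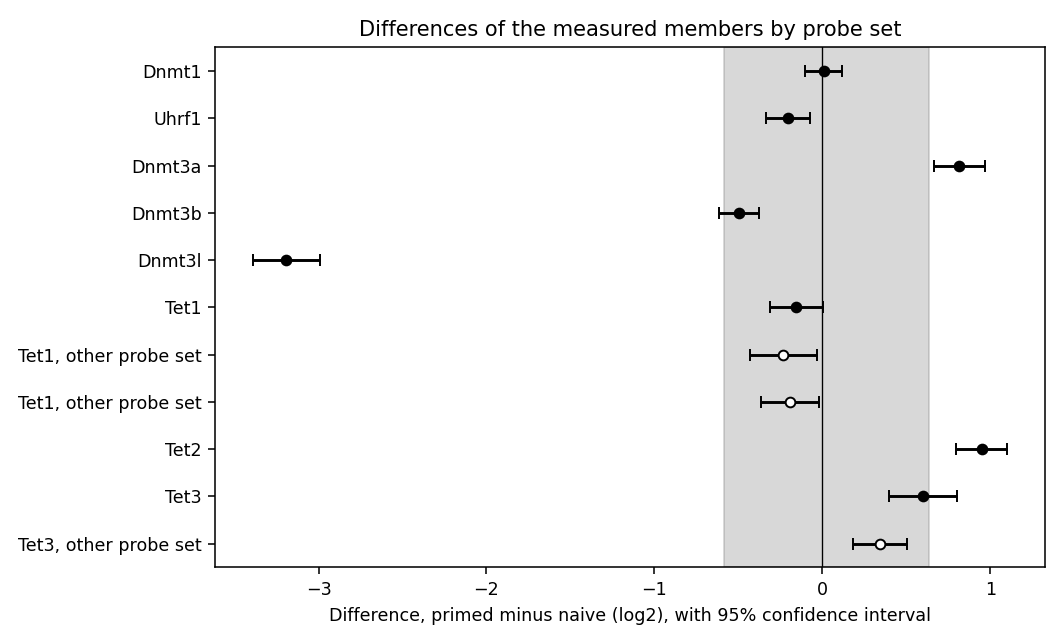
Difference of each measured member (horizontal axis, log2, primed minus naive) with its 95% confidence interval, from a fit over probe sets. Filled points are the probe set used and open points are other probe sets of the gene, and the grey band holds the differences between the 5th and the 95th percentile of all genes, -0.58 to 0.64. Dnmt3l lies at -3.19, and Dnmt3a and Tet2 lie beyond the band on the positive side.

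Of the maintenance pair, Dnmt1, the copying enzyme, measured 11.99, 11.94 and 11.96 on the primed arrays, against 11.92, 11.98 and 11.95 on the naive arrays. The groups overlapped throughout. The difference of 0.01 had a 95% confidence interval of -0.10 to 0.12 (limma adjusted p = 0.91), so a change of more than 0.12 in either direction lies outside the interval. Its sign depended on scaling, with 0.09 after quantile normalization and -0.06 with arrays centred on their medians, and it passed in neither.

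Uhrf1, which brings Dnmt1 to replicated DNA, measured 11.51, 11.38 and 11.39 on the primed arrays, against 11.58, 11.70 and 11.62 on the naive arrays. The primed values were all lower, the nearest pair of arrays differing by little. The difference was -0.20 (SE 0.06, 95% confidence interval -0.33 to -0.07, limma adjusted p = 0.014). This call ended without primed replicate 2 (adjusted p = 0.057), primed replicate 3 (adjusted p = 0.055) or naive replicate 2 (adjusted p = 0.057), and after quantile normalization the difference was -0.13 (adjusted p = 0.0499). Dnmt1 minus Uhrf1 was 0.53 ± 0.05 in primed and 0.32 ± 0.03 in naive cells (SD, n = 3; exact permutation test, p = 0.1).

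Of 11 proliferation markers 5 were lower in primed cells and 0 higher, against 22.7% lower and 21.8% higher over all genes. Their mean level per array was 11.87 to 11.95 in primed and 12.06 to 12.09 in naive cells. Uhrf1 is itself a gene of cycling cells. The part of this shift in the Uhrf1 difference was not tested.

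Among the TET dioxygenases, Tet2 rose most. It measured 10.61, 10.62 and 10.53 on the primed arrays, against 9.49, 9.70 and 9.73 on the naive arrays. The groups were far apart relative to their spread. The difference was 0.95 (SE 0.07, 95% confidence interval 0.80 to 1.10, limma adjusted p = 6.13e-07), or 1.93-fold, rank 393 among the rises of all genes.

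Tet3, best known as the TET enzyme of the zygote and of neurons, measured 9.41, 9.49 and 9.17 on the primed arrays, against 8.64, 8.91 and 8.71 on the naive arrays. The primed values were all higher. The difference was 0.60 (SE 0.09, 95% confidence interval 0.40 to 0.80, limma adjusted p = 0.000189). In a fit over probe sets its dimmer one gave 0.34 (limma adjusted p = 0.00243), past the threshold in the same direction and smaller.

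Tet1 measured 11.94, 11.95 and 11.85 on the primed arrays, against 11.91, 12.18 and 12.12 on the naive arrays. Naive replicate 1 lay among the primed values and the other naive arrays above them. The difference was -0.15 (SE 0.07, 95% confidence interval -0.31 to 0.00, limma adjusted p = 0.10) and did not pass. Its other probe sets gave -0.23 and -0.19 in that fit and did not pass either. With arrays centred on their medians (adjusted p = 0.0242), an intensity trend (0.0377) or array weights (0.0407) Tet1 passed, and after quantile normalization it was -0.08 (0.383). Without naive replicate 1 the difference was -0.23 (adjusted p = 0.010), and without naive replicate 2 it was -0.10 (adjusted p = 0.33), so the call rests on which naive culture is counted.

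Within arrays, Tet1 minus Tet2 was 1.33 on each primed array, against a mean of 2.43 ± 0.05 on the naive arrays (SD, n = 3), a shift of -1.10 (exact permutation test, p = 0.1). Tet2 minus Tet3 was 1.23 ± 0.11 in primed and 0.88 ± 0.12 in naive cells (SD, n = 3; exact permutation test, p = 0.1). In neither pair did the groups overlap. As 0.1 is the smallest p that this test can give here, it does not decide whether the TET genes changed by unequal amounts.

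Naive replicate 2 had the highest naive value for 7 of the 8 members and naive replicate 1 the lowest for 6. On the primed side replicate 1 was highest for 5 members and replicates 2 and 3 were each lowest for 4. These arrays set how firmly the small differences of Uhrf1 and Tet1 can be stated, while the calls of Dnmt3l, Dnmt3a, Dnmt3b, Tet2 and Tet3 held without any 1 array, with adjusted p of at most 0.0022.

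**Figure D4:**
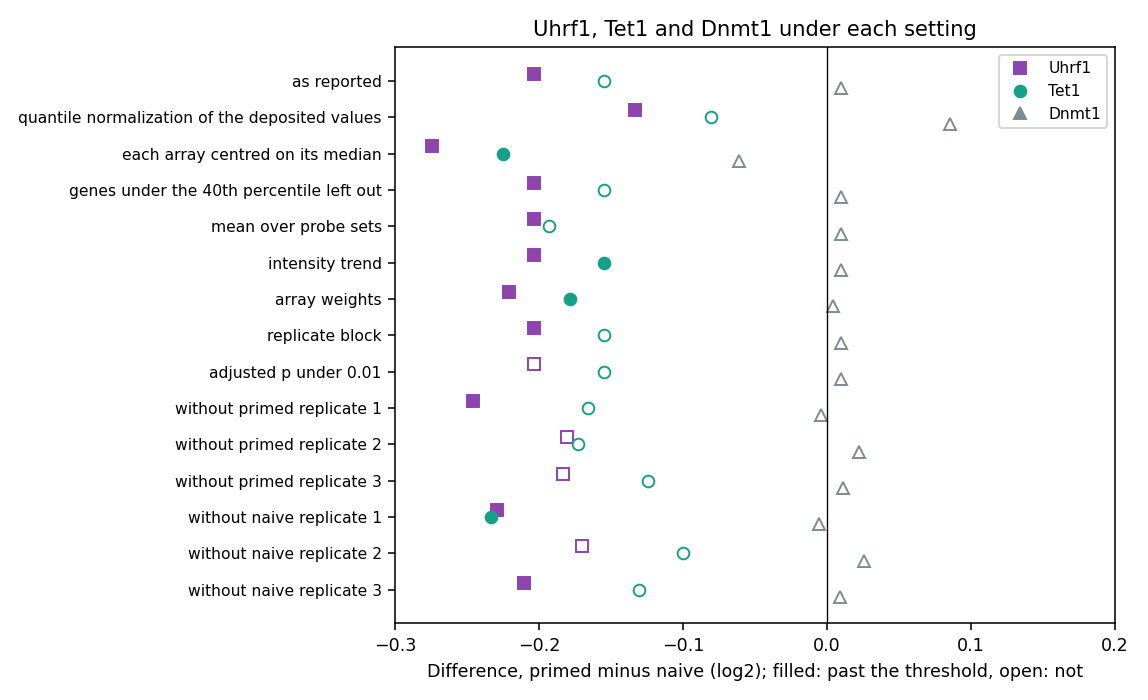
Difference of Uhrf1, Tet1 and Dnmt1 (horizontal axis, log2, primed minus naive) as reported and under each other setting (rows). Filled symbols passed the threshold of that row and open ones did not. Uhrf1 stays between -0.27 and -0.13, Tet1 between -0.23 and -0.08, and Dnmt1 crosses 0.

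Genes with the most similar profile over the 6 arrays were sought for the 3 members that differed most, as the least mean absolute distance between profiles centred on their own mean. For Dnmt3l these were S100a6 (distance 0.10), Peg10 (0.14) and Kctd12b (0.15). S100a6, a calcium-binding protein gene, differed by -3.39, Peg10, an imprinted gene, by -2.94 and Kctd12b by -2.90. For Tet2 they were Irf2 (0.02), an interferon regulatory factor gene, Sox21 (0.03), a neural transcription factor gene, and Prr36 (0.04). For Dnmt3a they were the ankyrin gene Ank2 (0.02), the kinesin gene Kif21a (0.02) and the death receptor gene Tnfrsf10b (0.03). With 2 groups such likeness mostly reflects a difference of the same size.

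Each list below is read against all genes, of which 21.8% were called higher and 22.7% lower in primed cells, with a median difference of 0.00. Of 10 partners of maintenance methylation 5 fell and 1 rose in primed cells, with a median difference of -0.14. Hells, a chromatin remodeller needed for methylation of repeats, measured 10.77, 10.69 and 10.71 on the primed arrays, against 11.10, 11.31 and 11.23 on the naive arrays. The groups did not overlap, and the difference was -0.49 (SE 0.06, limma adjusted p = 5.4e-05). Uhrf2, a relative of Uhrf1, fell by 0.35, Usp7, a deubiquitinase of Dnmt1 and Uhrf1, by 0.26, the replication ligase gene Lig1 by 0.22 and the deacetylase gene Hdac1 by 0.20. Hdac1 did not pass after quantile normalization (adjusted p = 0.079). Ehmt1, a histone H3 lysine methyltransferase gene, rose by 0.25. Of the 11 proliferation markers counted above, 5 were also lower in primed cells, 0 were higher and 6 did not pass. The part of proliferation in the differences of this list was not tested.

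Of 10 genes that protect or direct methylation 3 were higher in primed cells, 4 lower and 3 did not pass, against 21.8% higher and 22.7% lower over all genes. Dppa3, which in mouse keeps Uhrf1 off chromatin and shields the maternal genome from Tet3, measured 6.07, 6.18 and 6.29 on the primed arrays, against 9.10, 8.82 and 9.05 on the naive arrays. All primed values were in background. Dppa3 was at least 3.998-fold lower in primed cells (limma adjusted p = 5.1e-10). Trim28, a co-repressor at imprints and retroelements, fell by 0.34, and Setdb1, its histone methyltransferase partner, by 0.29. Zfp57, which guards imprints, rose by 0.19, Zfp445, which does the same, by 0.21, and Ctcfl, the germline relative of Ctcf, by 0.19. Ctcfl passed narrowly (limma adjusted p = 0.042) and lay close to background, at 7.29 in primed and 7.10 in naive cells. The calls of Zfp57 (adjusted p = 0.063) and Zfp445 (adjusted p = 0.097) ended with arrays centred on their medians, and that of Zfp445 also without primed replicate 1 (0.070), naive replicate 1 (0.076) or naive replicate 3 (0.054). Morc1, a silencer of transposons in the male germ line, lay in background on the primed arrays and on naive replicate 3, and its fall (adjusted p = 0.000245) is bounded only as at least 1.08-fold. Prdm14, a repressor of de novo methyltransferase genes in naive cells, was in background in both groups, at 6.50 in primed and 6.51 in naive cells.

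Of 8 measured genes of methyl-CpG-binding domain and Kaiso-type proteins 3 fell and 1 rose in primed cells, a share called near the 44.5% of all genes. Not all of these proteins prefer methylated DNA, and mammalian Mbd3 and Mbd6 are known not to. Mbd6 rose by 0.73 (limma adjusted p = 4.0e-06), with 10.50, 10.31 and 10.27 on the primed arrays, against 9.56, 9.64 and 9.67 on the naive arrays. Zbtb33, the Kaiso gene, fell by 0.32, and Mbd2 and Mbd3, whose proteins belong to the NuRD complex, fell by 0.26 and 0.27.

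Factors of base excision repair and other routes of demethylation were higher in primed cells in 6 of 14 measured cases and lower in 2, against 21.8% and 22.7% of all genes, with a median difference of 0.09. Gadd45g, whose family links repair enzymes to demethylation, measured 9.08, 8.94 and 8.95 on the primed arrays, against 7.99, 8.09 and 8.02 on the naive arrays. It rose by 0.96 (SE 0.06, limma adjusted p = 1.7e-07). Its relatives Gadd45a (0.03) and Gadd45b (-0.11) did not pass. The cytidine deaminase gene Apobec1 rose by 0.90, the glycosylase genes Neil3 by 0.61 and Smug1 by 0.46, and Xrcc1 by 0.17. The naive values of Smug1, 6.98, 7.14 and 7.02, lay close to the background cutoff, and that of naive replicate 1 lay under it. Neil2 also passed (0.42) but lay in background in both groups. Apex1, for the main abasic site endonuclease, fell by 0.38 and the uracil glycosylase gene Ung by 0.33.

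TET partners and genes for TET cofactors were higher in primed cells in 4 of 10 measured cases and lower in 2, against 21.8% and 22.7% of all genes, with a median difference of 0.10. Idh1 and Idh2, whose enzymes make the alpha-ketoglutarate that TET enzymes consume, rose by 0.66 and 0.79. Cxxc4, whose product binds Tet2 and promotes its breakdown, rose by 0.79, with 8.17, 8.17 and 8.13 on the primed arrays, against 7.51, 7.30 and 7.30 on the naive arrays. Cxxc5, its relative, rose by 0.19, a call that ended with arrays centred on their medians (adjusted p = 0.068). Sall4, a zinc finger protein that binds oxidised methylcytosine, fell by 0.44 and D2hgdh, for an enzyme that clears an inhibitor of TET enzymes, by 0.22. The call of D2hgdh ended without primed replicate 1 (adjusted p = 0.060) or naive replicate 3 (adjusted p = 0.087). In the methyl donor cycle 2 of 6 measured genes were higher in primed cells and 0 lower, Mat2b, for a regulatory subunit of the enzyme that makes S-adenosylmethionine, by 0.42 and Ahcyl1 by 0.26.

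Germline genes that promoter methylation is known to silence in somatic cells had low levels. Of 16 such genes 11 were in background in both groups, against 26.9% of all genes, and a gene there that did not pass may still have changed below what the array measures. None of the 16 was higher in primed cells and 2 were lower. Sycp3, of the meiotic chromosome axis, measured 4.72, 5.43 and 5.13 on the primed arrays, against 7.05, 7.06 and 6.20 on the naive arrays. It was in background on all primed arrays and on naive replicate 3, and the other naive values lay just above their cutoffs. Sycp3 passed (limma adjusted p = 6.3e-05), but with the naive mean of 6.77 under the cutoff no size of change is given. Mael, of the piRNA pathway, passed at -0.15 within background, and its call ended without primed replicate 2 (adjusted p = 0.0930), primed replicate 3 (0.11), naive replicate 1 (0.095), naive replicate 2 (0.056) or naive replicate 3 (0.068), with an intensity trend (0.068) and with the replicate block (0.052). Dazl and Ddx4 were in background in both groups.

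**Figure D5:**
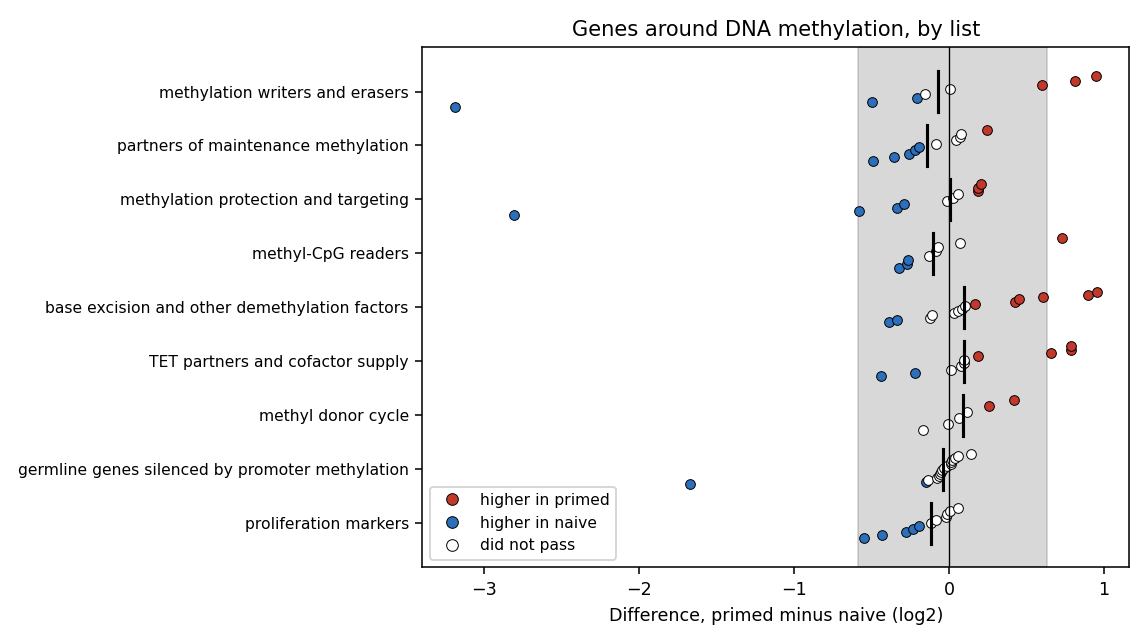
Differences (horizontal axis, log2, primed minus naive) of the measured genes of the writers and erasers, of 7 lists of related genes and of proliferation markers. Each point is a gene, coloured by its call, black bars are list medians and the grey band holds the 5th to 95th percentile of all genes, -0.58 to 0.64; the far points Dnmt3l, Dppa3 and Sycp3 are fitted values that rest on primed levels in background.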

How the data were processed

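The authors deposited log2 expression values for 35556 probe sets on 6 arrays, and the submitters' processing notes name RMA and Partek 6.6. RMA's settings and the genome build were not given in the sources used here. Gene symbols came from the platform annotation at GEO (21789 with 1 symbol, 1621 with several, which were not used), and 21698 matched RefSeq by gene ID. No further normalization was applied. Differences of dim genes are understated by RMA, and precision is limited by the number of arrays. The median gene lay at 8.35 to 8.38 on the primed and at 8.28 to 8.29 on the naive arrays.

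The comparison used lmFit and eBayes of limma 3.58.1 (R 4.3.3) without covariates, tested on simulated data. Members, gene lists and tests were chosen with earlier results of these data known. The genes named are the 9 members, the 6 with the largest difference in each list, a few fixed regulators (Dppa3, Prdm14, Zfp57, Trim28, Hells, Uhrf2) and the nearest profiles (3 for each of 3 members, leaving out predicted genes), with others named to complete a count after their values were seen (such as Ctcfl, Xrcc1, Ung, Gadd45a and Gadd45b), whose calls were not followed under the other settings. Lists were described by counts, without a list test. Other settings tried were quantile normalization, centring on array medians, leaving out genes under the 40th percentile, averaging a gene's probe sets, limma's trend and array weights, a replicate block, a threshold of 0.01 and leaving out each array.

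Genes of these lists other than those counted as measured were not analysed here. Promoter windows were read with Python 3.11.15 from RefSeq sequences of GRCm38.p6, in which all 8 measured members were found.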

Additional observations from a re-analysis of the deposited data

How the results depend on the processing

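No call of a member, or of the 99 other genes followed, reversed under the 14 other settings. Dnmt3l, Dnmt3a, Dnmt3b, Tet2 and Tet3 kept direction and call in each. Uhrf1 (-0.20) did not pass at a threshold of 0.01, and without each array in turn it ranged from -0.25 to -0.17, passing in 3 of the 6 fits. Tet1 passed with arrays centred on their medians (-0.23), with an intensity trend (-0.15) and with array weights (-0.18), and ranged from -0.23 to -0.10 without each array. The cause was not tested. Of those 99 genes, 17 crossed the threshold under some setting. Centring each array on its median moved the median difference of all genes to -0.07 and the calls over all genes to 3439 with the higher level in primed cells and 6325 with the higher level in naive cells (35.2% of calls on the primed side), against 4347 and 4529 (49%) as reported. Genes called in the 7 related lists numbered 17 on the primed and 18 on the naive side, and 12 and 26 after that centring. Without each array in turn the lists gave 14 to 17 and 16 to 19.

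No pairing of the arrays by replicate number was seen, which does not exclude one. Deviations of same-numbered arrays correlated at -0.11, 0.00 and -0.02, and 0 of 6 arrays correlated best with its own number. With the replicate block 4172 genes passed on the primed and 4344 on the naive side, Uhrf1 had an adjusted p of 0.0313, and no member's call changed. Genes under the background cutoff have only a bound on their change.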
